A study of Saccharomyces cerevisiae S288C and Saccharomyces paradoxus NRRL Y-17217 and Saccharomyces mikatae IFO 1815 with 8 samples.

Results

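The expression of orthologous genes was compared between 2 budding yeasts, S. bayanus and S. paradoxus, in 4 of the 8 libraries of a study of 4 Saccharomyces species. The genes compared were those listed once in the tables of both species and of S. cerevisiae, with a length in both species within 0.9 to 1.1 times that of the S. cerevisiae gene and with at least 90% of their reads aligned to a single place in all 4 libraries. Of 6599 S. cerevisiae genes, 4441 were listed once in the 3 tables, 3745 of these met the limits on length and 3475 met all the conditions. Each species was represented by 2 cultures of 1 strain, MCYC623 for S. bayanus, whose organism field in the labels reads Saccharomyces uvarum, and Y-17217 for S. paradoxus. Both strains were diploid and prototrophic, neither carried an engineered allele or received a treatment, and the cultures were grown at the same temperature and taken in exponential growth by optical density. The labels name complete media, whereas the methods of the study name a glucose medium without amino acids. Both descriptions apply to all cultures alike. Day 1 and day 2 below stand for replicates 1 and 2, since each number marks cultures prepared together on one day. The 2 S. cerevisiae libraries, which also entered the fit, came from a diploid, prototrophic strain made by mating FY4 and FY5. With 1 strain per species, the species and the strain cannot be told apart.

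S. paradoxus is the closest known relative of S. cerevisiae, and S. bayanus (S. uvarum) belongs to the most distant branch of the genus in the study and is known for growing better than its relatives in the cold. Most genes of S. cerevisiae have a single recognisable counterpart in both species, so reads per gene can be set side by side. Yeast cells on glucose repress the genes of respiration, of fat breakdown and of the use of other sugars, and raise them, with genes that protect from stress, when glucose runs low or growth slows. Transcription factors behind these programmes are well described in S. cerevisiae: Gal4 for galactose genes, Msn2 and Msn4 for stress genes, Rpn4 for the proteasome and Gcn4 for amino acid synthesis.

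The 3475 genes held 2344402 and 3340104 uniquely aligned reads in S. bayanus on days 1 and 2, and 3265740 and 4969260 in S. paradoxus. The median gene had 220 and 232 reads in S. bayanus and 202 and 261 reads in S. paradoxus. The 10 most abundant genes took 17.3 and 18.7% of these reads in S. bayanus, against 27.5 and 28.4% in S. paradoxus, and the TMM scaling factors were 1.42 and 1.06 in S. bayanus and 0.993 and 0.803 in S. paradoxus. Levels below are CPM, reads per 1000000 reads of the gene set after TMM normalization. They are not corrected for gene length and are compared between species, not between genes. Genes that mark haploid cells were read to check the labelled diploid state: 8 of 9 were in the gene set, and their summed level was 177 and 132 CPM in S. bayanus, against 176 and 171 CPM in S. paradoxus. AGA2, the only member of 7 genes specific to a cells, had no read in S. bayanus and 3 and 6 reads in S. paradoxus.

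Among 3406 genes with at least 10 reads in at least 2 of the 4 libraries, 455 were higher and 433 were lower in S. bayanus than in S. paradoxus at an adjusted p under 0.05 (edgeR's quasi-likelihood test with the day as a block and the 2 S. cerevisiae libraries adding to the estimate of the spread). Of all genes tested, 26.1% were called, 13.4% as higher and 12.7% as lower, and 1371 genes had an unadjusted p under 0.05. The median log2 fold change of S. bayanus over S. paradoxus was 0.03 and the median absolute value was 0.75, whereas 10% of genes exceeded 2.05. Of the 888 genes called, 60 were at least 8-fold higher and 41 at least 8-fold lower, and the smallest absolute log2 fold change among them was 1.00. All 888 had the same direction on both days, and in 874 the CPM of the S. bayanus libraries lay wholly above or wholly below that of the S. paradoxus libraries, as it did in 2131 of all 3406 genes. The calls were made on these same libraries, so neither count is separate support for them. The number of calls depended on single libraries: without S. paradoxus replicate 1 only 6 genes were called (HSP12, CRS5, CMC1, DIP5, LIH1 and YBR242W), and without S. paradoxus replicate 2 only HSP12, CRS5, DIP5 and LIH1 were. Without S. bayanus replicate 1 there were 267 higher and 155 lower, without S. bayanus replicate 2 there were 435 and 360, and without S. cerevisiae replicate 1 or 2 there were 670 and 635 or 799 and 652. Scaling by total counts in place of TMM raised the median log2 fold change of all genes to 0.49 and gave 839 higher and 224 lower genes, so that 78.9% of calls were higher, against 51.2% with TMM. Without the day as a block 239 genes were higher and 221 lower.

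**Figure D1:**
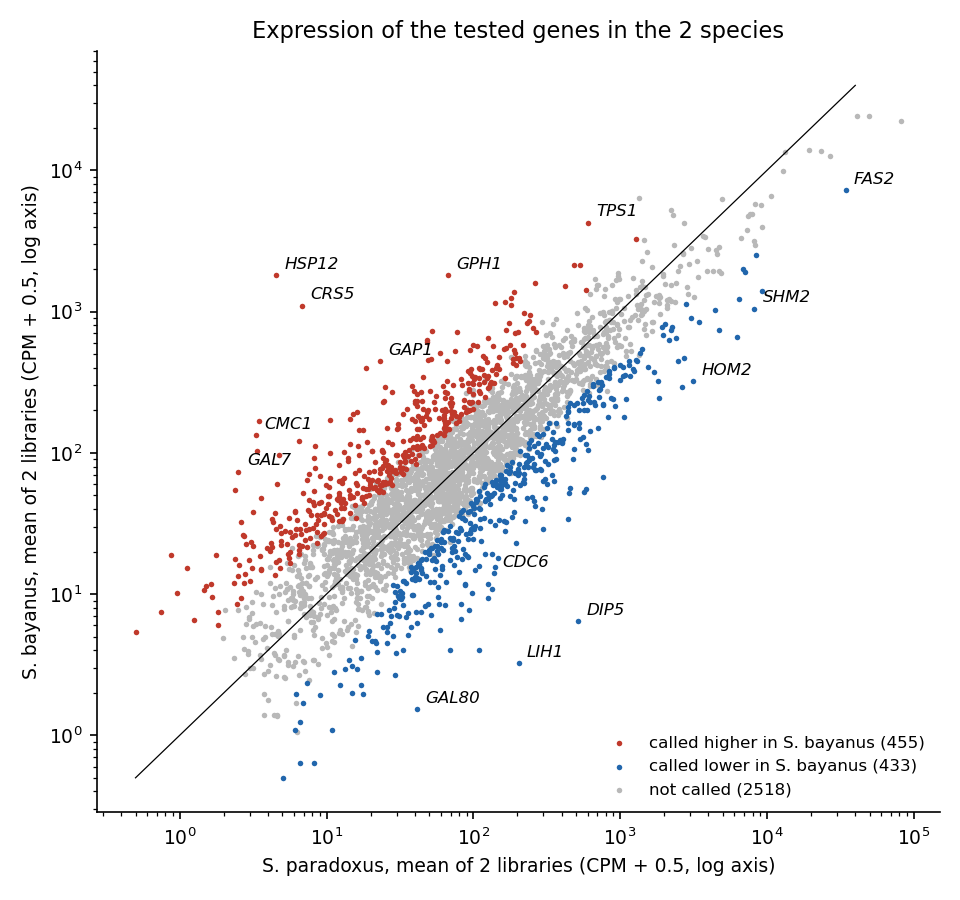
Mean level of each of the 3406 tested genes in S. bayanus (vertical axis) and S. paradoxus (horizontal axis), in CPM + 0.5 on log axes, with the line of equal levels. Red points are the 455 genes called higher and blue points the 433 called lower in S. bayanus. HSP12 and CRS5 lie farthest above the line, and DIP5, LIH1 and GAL80 far below it.

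The largest difference was in HSP12, a small stress protein that associates with membranes and is made when growth slows. HSP12 had 1176 and 2449 CPM in S. bayanus, against 4.32 and 3.76 CPM in S. paradoxus. Both S. bayanus libraries were far above both S. paradoxus libraries, which held 14 and 15 reads of the gene (log2 fold change 8.72, SE 0.56, adjusted p = 8.88e-05). Next came CRS5, a metallothionein that binds copper, with 992 and 1212 CPM in S. bayanus, against 7.09 and 5.51 CPM in S. paradoxus (log2 fold change 7.43, SE 0.53, adjusted p = 0.000108). Its levels hardly differed between days in either species. CMC1, a mitochondrial protein needed to assemble the copper-containing cytochrome c oxidase, had 135 and 130.1 CPM in S. bayanus, against 3.39 and 2.26 CPM in S. paradoxus (log2 fold change 5.56, SE 0.45, adjusted p = 0.000208). GPH1, the phosphorylase that breaks down glycogen, had 1575 and 2038 CPM in S. bayanus, against 68.2 and 66.2 CPM in S. paradoxus (log2 fold change 4.69, SE 0.69, adjusted p = 0.00257). These levels rest on 5241 and 7236 reads in S. bayanus and 221 and 264 reads in S. paradoxus, and the groups do not overlap. GAP1, the general amino acid permease, had 339 and 549.8 CPM in S. bayanus, against 21.6 and 23.8 CPM in S. paradoxus (log2 fold change 4.31, SE 0.60, adjusted p = 0.00218), while another annotated gene overlapped part of it on the same strand in S. paradoxus.

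Enzymes of fatty acid breakdown in the peroxisome were also among the 15 genes with the largest increases. POT1, the thiolase of the last step, had 64.6 and 43.4 CPM in S. bayanus, against 1.54 and 2.26 CPM in S. paradoxus, and FOX2, which carries the preceding activities, had 556 and 240 CPM in S. bayanus, against 18.8 and 17.6 CPM in S. paradoxus. In both genes the lowest S. bayanus library was above the highest S. paradoxus library by more than 10 times (log2 fold changes 4.78 and 4.45, SE 0.58 and 0.62). The other genes of this group were GAL7, described with the galactose genes, EGO4, HAB1, TMA10 (a ribosome-associated protein made under stress), SPO75 (needed for sporulation in S. cerevisiae), YKL091C (related to the lipid transfer protein Sec14), FRE5 (a putative iron reductase) and POA1 (a phosphatase that acts on an ADP-ribose derivative), with log2 fold changes of 4.02 to 6.27. HAB1 and FRE5 had no read in S. paradoxus on day 1, and in S. bayanus they had 96 and 28 and 82 and 18 reads, so that their fold changes rest on few reads. FRE5 was not called by DESeq2.

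**Figure D2:**
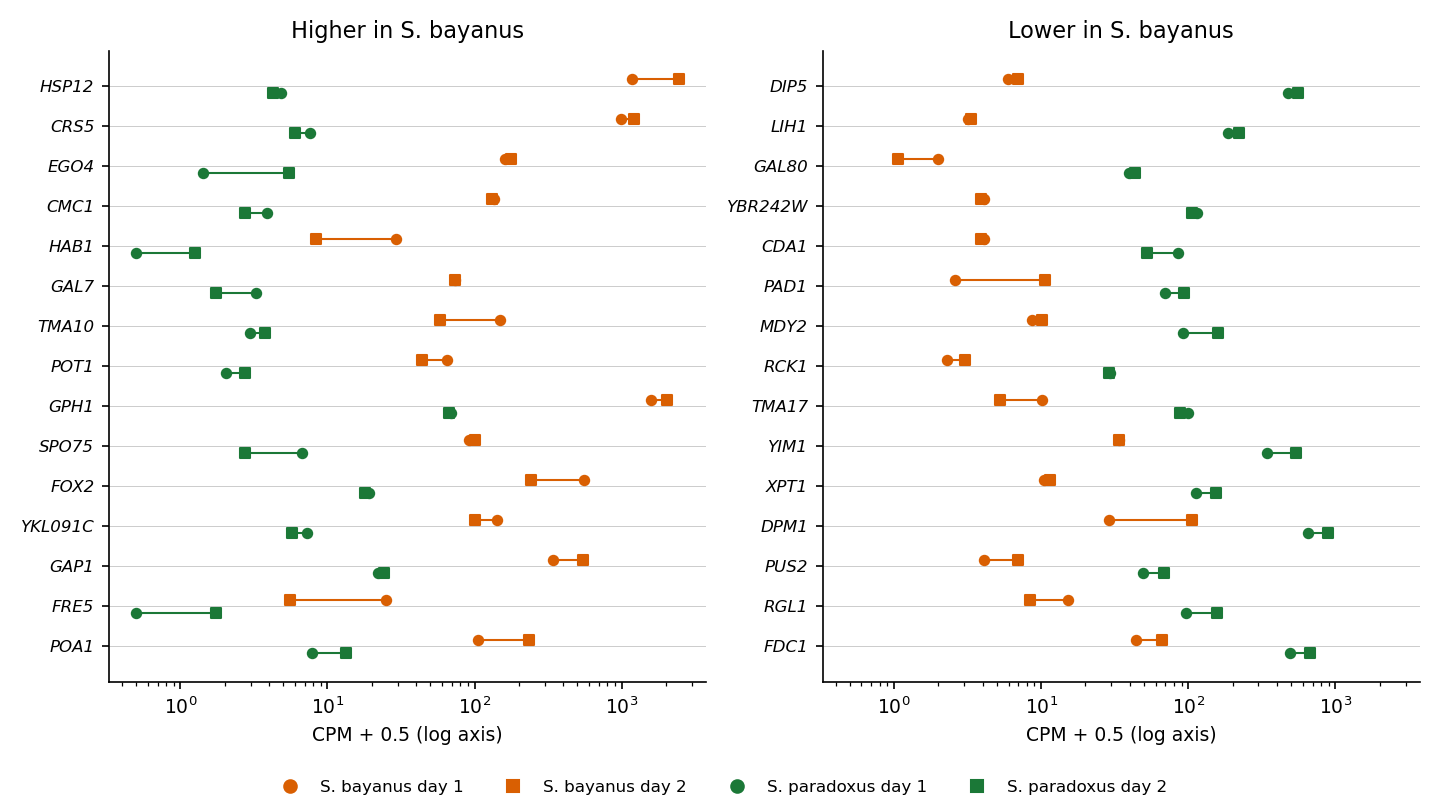
Levels of the 15 genes with the largest and the 15 with the lowest log2 fold changes among called genes with at least 100 reads in the higher species, in CPM + 0.5 on a log axis, for each library of S. bayanus (orange, upper of each pair) and S. paradoxus (green), with circles for day 1 and squares for day 2. In the left panel both S. bayanus libraries lie above both S. paradoxus libraries for every gene, and in the right panel both lie below.

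Among called genes with at least 100 reads in the 2 libraries of the higher species, the largest decrease was in DIP5, the permease for glutamate and aspartate, which had 5.41 and 6.48 CPM in S. bayanus, against 476 and 559 CPM in S. paradoxus (log2 fold change -6.44, SE 0.43, adjusted p = 8.88e-05). LIH1, a lipase-like protein, had 2.7 and 2.82 CPM in S. bayanus, against 185 and 221 CPM in S. paradoxus (log2 fold change -6.19, SE 0.47, adjusted p = 0.000151). Both were nearly silent in S. bayanus, with 18 and 23 reads for DIP5 and 9 and 10 for LIH1. PAD1 and FDC1, neighbours on chromosome IV of S. cerevisiae that act together to decarboxylate phenylacrylic acids such as ferulic acid, were both lower. PAD1 had 2.1 and 10.1 CPM in S. bayanus, against 69.4 and 93.5 CPM in S. paradoxus and FDC1 had 43.6 and 65.9 CPM in S. bayanus, against 489 and 677 CPM in S. paradoxus (log2 fold changes -3.82 and -3.42, SE 0.57 and 0.39, adjusted p 0.00277 and 0.00118). In both, the higher S. bayanus library was below the lower S. paradoxus library. DPM1, the dolichol phosphate mannose synthase that supplies sugar for protein glycosylation, had 28.6 and 105 CPM in S. bayanus, against 647 and 891 CPM in S. paradoxus (log2 fold change -3.63, SE 0.59, adjusted p = 0.0037). MDY2, which helps to insert tail-anchored proteins into the endoplasmic reticulum, had 8.11 and 9.58 CPM in S. bayanus, against 91.9 and 158 CPM in S. paradoxus (log2 fold change -3.78, SE 0.40, adjusted p = 0.000983). The other genes of the 15 were YBR242W (a nucleotidase), CDA1 (a chitin deacetylase of the spore wall), RCK1 (a protein kinase), TMA17 (a chaperone of proteasome assembly), YIM1, XPT1 (a purine salvage enzyme for xanthine), PUS2 (a pseudouridine synthase) and RGL1, with log2 fold changes of -4.96 to -3.48, and GAL80.

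Genes of galactose use differed in opposite directions. In S. cerevisiae, Gal4 binds the galactose promoters, Gal80 holds it inactive, and Gal3 releases it when galactose is present. GAL7 and GAL80 each carried 1 match to the Gal4 site in the 300 bases before the start codon of the S. cerevisiae gene. The match is shown because these 2 genes had the largest changes of the pathway, in opposite directions. The stretches are from RefSeq's R64 genome of S. cerevisiae, not from the species measured, are written 5′ to 3′ on the strand of the gene, and have in capitals the match to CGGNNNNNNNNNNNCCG, which reads alike on both strands.
GAL7, chrII:275696-275725, minus strand: agcgctCGGACAACTGTTGACCGtgatccg
GAL80, chrXIII:171416-171445, plus strand: atttacCGGCGCACTCTCGCCCGaacgacc
Of 6001 R64 protein-coding genes with a whole window, 1.45% held this motif, and 4 of the 9 tested members of the galactose list did. Of the 43 tested genes with the site 4.65% were higher and 16.3% lower, compared with 13.5% and 12.7% of the 3360 without it. No test was made of these shares.

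GAL7, the transferase in the middle of the pathway, had 73 and 73 CPM in S. bayanus, against 2.77 and 1.25 CPM in S. paradoxus (log2 fold change 5.19, SE 0.73, adjusted p = 0.00224). GAL4, the activator, had 73.9 and 61.7 CPM in S. bayanus, against 7.09 and 10 CPM in S. paradoxus (log2 fold change 3.04, SE 0.46, adjusted p = 0.00295). GAL80, the inhibitor of Gal4, had 1.5 and 0.563 CPM in S. bayanus, against 39.2 and 42.6 CPM in S. paradoxus (log2 fold change -5.27, SE 0.55, adjusted p = 0.000983). The gene listed as GAL80 was thus at 5 and 2 reads in S. bayanus against 127 and 170 reads in S. paradoxus, while GAL4 was higher in both S. bayanus libraries. Only genes listed once under these names were counted, and the activity of the inhibitor was not measured. The other structural genes did not follow GAL7: the galactokinase GAL1 had 37.3 and 35.2 CPM in S. bayanus, against 27.8 and 36.3 CPM in S. paradoxus and the epimerase GAL10 had 51.1 and 40.8 CPM in S. bayanus, against 23.8 and 24.6 CPM in S. paradoxus (adjusted p 0.802 and 0.153). GAL3, the sensor, had 39.4 and 55.5 CPM in S. bayanus, against 25.6 and 43.1 CPM in S. paradoxus (adjusted p 0.427). Of the 2 forms of phosphoglucomutase, which links galactose and glycogen to glycolysis, PGM2 was higher and PGM1 lower. PGM2 had 615 and 920.2 CPM in S. bayanus, against 208 and 304 CPM in S. paradoxus (log2 fold change 1.58, SE 0.35, adjusted p = 0.0116) and PGM1 had 93.2 and 156 CPM in S. bayanus, against 379 and 434 CPM in S. paradoxus (log2 fold change -1.74, SE 0.35, adjusted p = 0.00875). GCY1, a glycerol dehydrogenase that galactose induces in S. cerevisiae, had 290.3 and 244 CPM in S. bayanus, against 30.2 and 57.4 CPM in S. paradoxus (log2 fold change 2.78, SE 0.53, adjusted p = 0.00701). In all, 4 of the 9 tested members were higher and 2 lower, with a median log2 fold change of 0.94. Another gene overlapped part of GAL4 and of PGM2 on the same strand in S. paradoxus, and without such genes 2 members were higher and 2 lower.

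**Figure D3:**
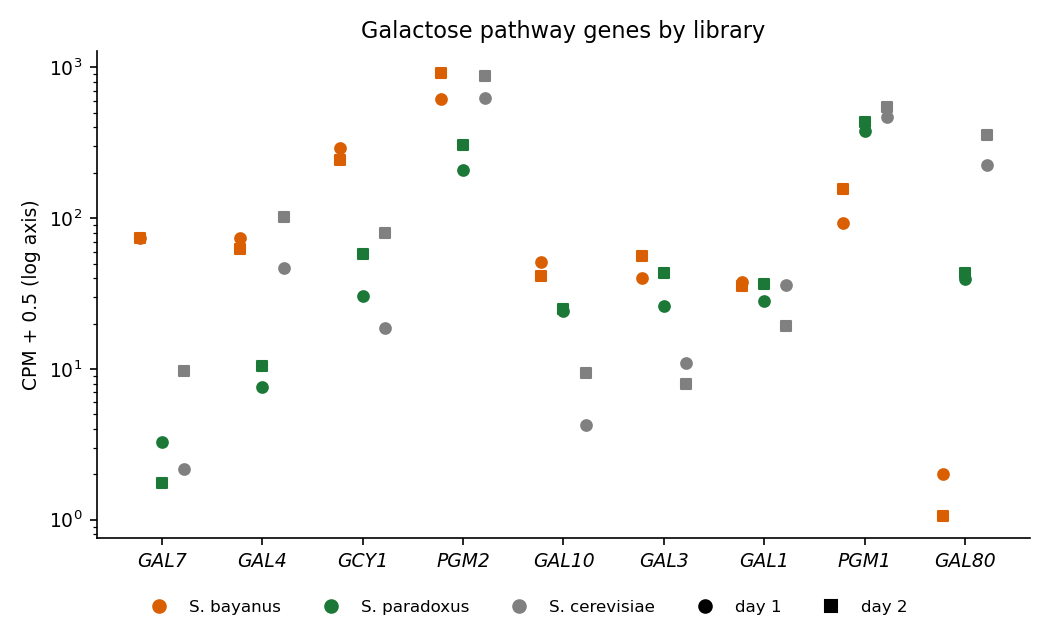
Levels of the 9 galactose genes in CPM + 0.5 on a log axis, with S. bayanus in orange, S. paradoxus in green and S. cerevisiae in grey, circles for day 1 and squares for day 2. GAL7 and GAL4 of S. bayanus lie above those of S. paradoxus, GAL80 of S. bayanus lies below both other species, and GAL1 of S. bayanus and S. paradoxus overlap.

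Of 17 tested members of the general stress list, 8 were higher and 0 lower, with a median log2 fold change of 1.33, against 13.4% and 12.7% of all genes and a median of 0.03. At an unadjusted p under 0.05 there were 9 higher and 0 lower members, and with DESeq2 8 and 1. Besides HSP12 they were TPS1, which makes trehalose 6-phosphate, PGM2, the glutamate decarboxylase GAD1, the thioredoxin TRX2, the aldehyde reductase GRE2, RTN2 and HOR7. TPS1 had 3892 and 4654 CPM in S. bayanus, against 474 and 740.4 CPM in S. paradoxus (log2 fold change 2.86, SE 0.47, adjusted p = 0.00379); in S. bayanus an annotated gene overlapped part of TPS1 on the same strand. GAD1 had 653 and 784 CPM in S. bayanus, against 249 and 288 CPM in S. paradoxus (log2 fold change 1.42, SE 0.34, adjusted p = 0.0161), so that its increase was far smaller. The trehalose and glycogen list had 14 tested members, of which 7 were higher and 1, PGM1, was lower, with a median of 1.31. Enzymes of both synthesis and breakdown were among them: the glycogen synthases GSY1 and GSY2 (log2 fold changes 1.75 and 1.75), the trehalose synthase subunit TSL1 (1.21), the trehalase ATH1 (1.41) and GPH1. GSY2 had 600.1 and 559.9 CPM in S. bayanus, against 148 and 206 CPM in S. paradoxus, and GSY1 had 86.5 and 208 CPM in S. bayanus, against 28.4 and 55.9 CPM in S. paradoxus.

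Msn2 and Msn4 bind the stress response element, AGGGG on either strand, and the element is shown for 3 of the genes that rose, again from the S. cerevisiae genome R64 with the match in capitals.
HSP12, chrVI:107012-107041, plus strand: ctagatctacagCCCCTggaaaatcgtttg
HSP12, chrVI:107054-107083, plus strand: gttccggtcgtcCCCCTcttgatctgaaag
PGM2, chrXIII:477848-477877, minus strand: aacttacgtgaaAGGGGacgttatactttt
TPS1, chrII:490653-490682, minus strand: ccgcaggctgatAGGGGtcaccccgctggg
Among the 6001 windows of 300 bases, 22.2% held the element. It was in 12 of the 17 tested general stress genes and in 6 of the 8 that were higher, and in 9 of the 14 trehalose and glycogen genes and 4 of the 7 that were higher. Over all tested genes with a window, 17% of the 777 with at least 1 match were higher and 12.2% lower, compared with 12.3% and 12.9% of the 2626 with none. Of the 121 genes with at least 2 matches, 23.1% were higher and 11.6% lower. These are shares of genes and no test was made of them.

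The heat shock proteins and chaperones had 9 of 18 tested members higher and 0 lower, with a median of 1.35, and several differed strongly between days. At an unadjusted p under 0.05 there were 10 higher and 1 lower members, and with DESeq2 10 and 1. HSP26, a small heat shock protein, had 1309 and 157 CPM in S. bayanus, against 39.5 and 64.9 CPM in S. paradoxus (log2 fold change 2.96, SE 0.80, adjusted p = 0.0258). The disaggregase HSP104 had 1974 and 365 CPM in S. bayanus, against 187 and 144 CPM in S. paradoxus (log2 fold change 2.70, SE 0.79, adjusted p = 0.0341). In both genes the S. bayanus library of day 1 stood far above that of day 2, and without S. bayanus replicate 1 neither was called and the list had 3 members higher. STI1, a partner of Hsp90, had 777 and 236 CPM in S. bayanus, against 94.7 and 23.8 CPM in S. paradoxus (log2 fold change 3.14, SE 0.45, adjusted p = 0.00242), with day 1 above day 2 in both species. The mitochondrial chaperonin HSP10 had 316 and 349 CPM in S. bayanus, against 79.6 and 123 CPM in S. paradoxus (log2 fold change 1.71, SE 0.43, adjusted p = 0.0196), with no such gap. HSF1, the regulator of these genes, had 183 and 85.3 CPM in S. bayanus, against 109 and 16.8 CPM in S. paradoxus (log2 fold change 1.45, SE 0.45, adjusted p = 0.0416), so that its groups overlapped across days and were apart only within a day.

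HSP12 and HSP26, members of the lists above, are also among the markers of cells past exponential growth. Of 9 such markers 5 were in the gene set, and their summed level was 2490 and 2610 CPM in S. bayanus, against 48.1 and 71.4 CPM in S. paradoxus. Nearly all of this came from HSP12 and HSP26, so the sum is not separate from the stress and heat shock lists. ICL1, the isocitrate lyase of cells without glucose, had 3 and 3.94 CPM in S. bayanus, against 3.08 and 1.75 CPM in S. paradoxus (adjusted p 0.564), and SPG4 and SPG1, named for stationary phase, had at most 8 reads in any of these 4 libraries. ADH2, PCK1, FBP1 and CTT1 did not meet the conditions on length, listing and unique reads. The part of growth phase in the difference of stress, storage and respiratory genes was not tested.

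The respiratory chain passes electrons to oxygen, and the ATP synthase uses the resulting proton gradient to make ATP. Of 28 tested members of the respiratory chain and ATP synthase, 13 were higher and 0 lower, with a median log2 fold change of 0.70. At an unadjusted p under 0.05 there were 14 higher and 1 lower members, and with DESeq2 13 and 0. CYC7, the form of cytochrome c made at low oxygen, had 13.5 and 23.1 CPM in S. bayanus, against 1.54 and 1 CPM in S. paradoxus (log2 fold change 3.80, SE 0.65, adjusted p = 0.00428). QCR7, a subunit of the cytochrome bc1 complex, had 347 and 111 CPM in S. bayanus, against 20.7 and 27.1 CPM in S. paradoxus (log2 fold change 3.02, SE 0.51, adjusted p = 0.00422), and COX13, of cytochrome c oxidase, had 224 and 187 CPM in S. bayanus, against 25.3 and 44.6 CPM in S. paradoxus (log2 fold change 2.61, SE 0.40, adjusted p = 0.00297). ATP16, the delta subunit of the ATP synthase, had 625 and 542 CPM in S. bayanus, against 84.5 and 114 CPM in S. paradoxus (log2 fold change 2.53, SE 0.41, adjusted p = 0.00365). ATP1, the alpha subunit of the same enzyme, had a smaller difference, with 2586 and 3981 CPM in S. bayanus, against 943 and 1629 CPM in S. paradoxus (log2 fold change 1.37, SE 0.43, adjusted p = 0.0429). The others were QCR6, RIP1, NDI1, INH1, COX7, ATP4, ATP18 and ATP20, at log2 fold changes of 1.37 to 3.06. COX7 lies inside another annotated gene on the same strand in S. bayanus, so its reads there cannot be told apart from those of that gene.

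In the tricarboxylic acid cycle 4 of 10 tested members were higher (SDH2, SDH1, LSC2 and MDH1) and 1 was lower, with a median of 0.96. SDH2, the iron-sulfur subunit of succinate dehydrogenase, had 606 and 603 CPM in S. bayanus, against 45.6 and 50.1 CPM in S. paradoxus (log2 fold change 3.66, SE 0.37, adjusted p = 0.000983), and its partner SDH1 had 492 and 923 CPM in S. bayanus, against 146 and 238 CPM in S. paradoxus (log2 fold change 1.85, SE 0.35, adjusted p = 0.00701). The exception was KGD2, of the 2-oxoglutarate dehydrogenase, with 104 and 142 CPM in S. bayanus, against 319 and 455 CPM in S. paradoxus (log2 fold change -1.66, SE 0.36, adjusted p = 0.011). Among other genes that glucose represses, 6 of 14 were higher and 1 was lower, with a median of 1.26, while the chi-square test of the study, rebuilt here, called 0 in either direction. CAT2 and CRC1 of the carnitine shuttle, which carries acetyl groups into mitochondria, had 564 and 342 CPM in S. bayanus, against 47.2 and 49.6 CPM in S. paradoxus and 104 and 119 CPM in S. bayanus, against 8.94 and 6.77 CPM in S. paradoxus. The acetyl-CoA synthetase ACS1, the glycerol phosphate dehydrogenase GUT2, the succinate-fumarate carrier SFC1 and the invertase SUC2 were also higher, with log2 fold changes of 1.61 to 4.42. JEN1, the lactate permease, was lower, with 15.6 and 22.8 CPM in S. bayanus, against 74 and 68.9 CPM in S. paradoxus (log2 fold change -2.00, SE 0.59, adjusted p = 0.0358).

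In the peroxisomal list 4 of 19 tested members were higher (POT1, FOX2, the catalase CTA1 and the reductase SPS19), 1 was lower, and the median was only 0.20. The thioesterase TES1 was the one that was lower, with 41.2 and 53.8 CPM in S. bayanus, against 296 and 318 CPM in S. paradoxus (log2 fold change -2.71, SE 0.36, adjusted p = 0.00202). An annotated gene overlapped part of TES1 on the same strand in S. bayanus. The other 14 tested members were not called.

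Of 51 tested mitochondrial ribosomal proteins 19 were higher and 1 was lower, with a median of 1.07 (0.98 on day 2 and 1.25 on day 1). MRP1, of the small subunit, had 232 and 362 CPM in S. bayanus, against 29 and 46.6 CPM in S. paradoxus (log2 fold change 2.98, SE 0.36, adjusted p = 0.00149). MRPL6, of the large subunit, had 89.5 and 134 CPM in S. bayanus, against 8.63 and 23.1 CPM in S. paradoxus (log2 fold change 2.88, SE 0.42, adjusted p = 0.00257). The 19 genes had log2 fold changes of 1.33 to 2.98. MRP10, the exception, had 2.1 and 2.82 CPM in S. bayanus, against 12.3 and 18.8 CPM in S. paradoxus (log2 fold change -2.64, SE 0.55, adjusted p = 0.00951). Which members were called depended on single libraries, and without either S. paradoxus library the calls of this list were lost. The list median ran from 1.06 to 1.57 over 19 alternative fits. The highest was with total counts, where the median of all genes was 0.49.

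**Figure D4:**
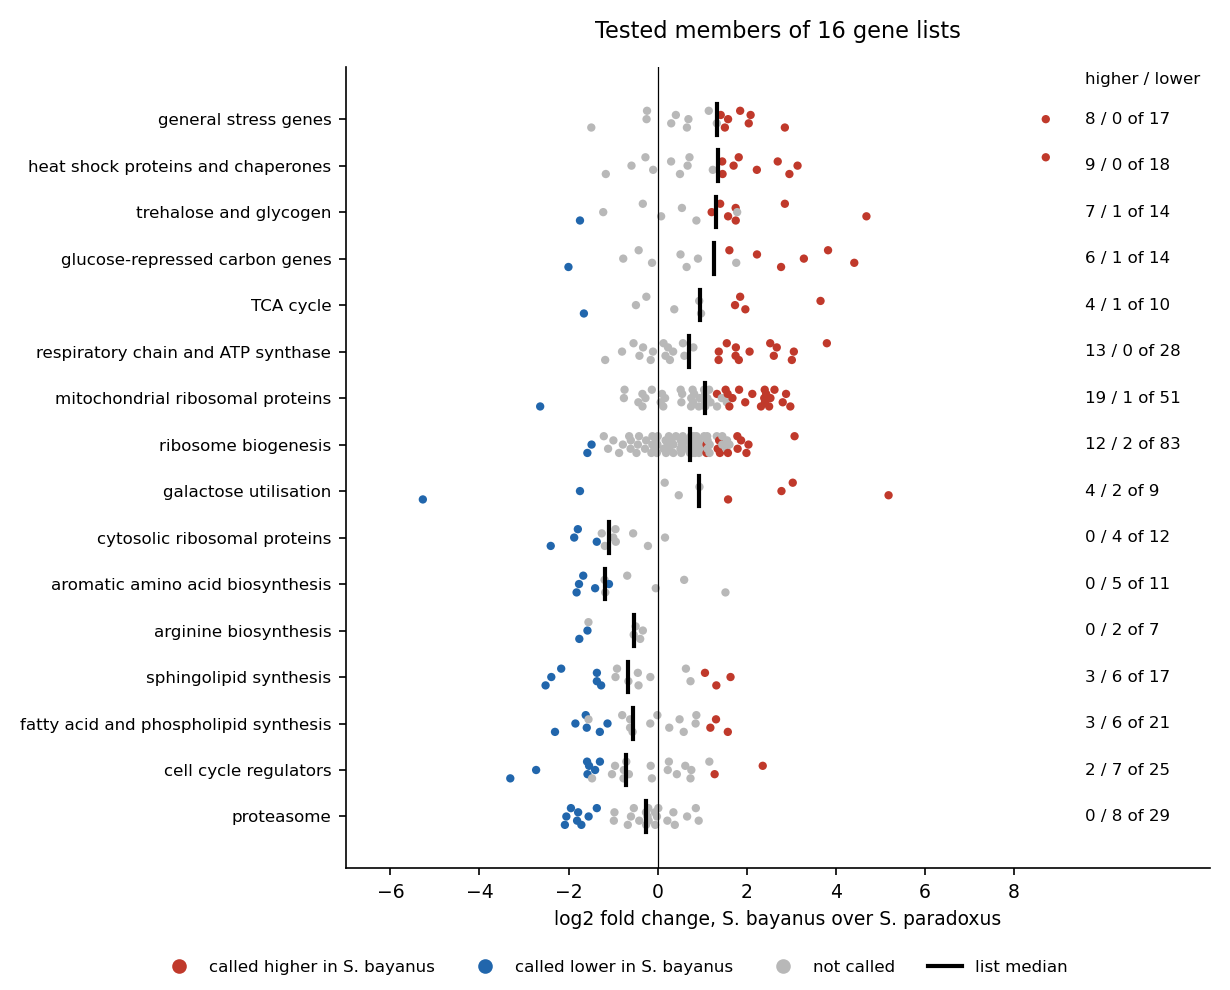
Log2 fold change of S. bayanus over S. paradoxus for every tested member of 16 lists, 1 point per gene, with red for genes called higher, blue for genes called lower, grey for the rest and a black bar for the list median. The medians of the stress, storage, respiratory and mitochondrial ribosome lists lie between 0.70 and 1.35, and that of the proteasome list at -0.26.

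Cytosolic ribosomal proteins could hardly be measured, since most yeast ribosomal protein genes come in near-identical pairs. Only 12 of 138 listed genes were in the set. Of these 4 were lower (RPS2, RPS15, RPL5 and RPP2B) and 0 higher, with a median of -1.09. At an unadjusted p under 0.05 there were 0 higher and 7 lower members, and with DESeq2 0 and 6. RPS2 had 887 and 1558 CPM in S. bayanus, against 5396 and 7433 CPM in S. paradoxus (log2 fold change -2.40, SE 0.55, adjusted p = 0.014), and RPL5 had 1859 and 2128 CPM in S. bayanus, against 4755 and 9086 CPM in S. paradoxus (log2 fold change -1.79, SE 0.57, adjusted p = 0.045). Neighbouring genes on the same strand overlapped RPL5 in S. bayanus and RPP2B in both species, and without such genes 2 members were lower. The list median of the factors that build ribosomes lay on the other side of 0, at 0.73. Of 83 such factors 12 were higher, near the 13.4% of all genes called higher, and 2 were lower, against 12.7% of all genes. Without the day as a block 3 were higher and 1 lower. With total counts 36 were higher and 1 lower, with 4 libraries and the day as a block 34 and 5, and with DESeq2 19 and 2. The list also differed between days, with a median of 0.16 on day 1 and 1.11 on day 2. NOP4 had 31.2 and 32.4 CPM in S. bayanus, against 4.63 and 3.01 CPM in S. paradoxus (log2 fold change 3.08, SE 0.48, adjusted p = 0.0033), and NMD3, which exports the large subunit, had 202 and 528 CPM in S. bayanus, against 93.1 and 95.8 CPM in S. paradoxus (log2 fold change 1.80, SE 0.41, adjusted p = 0.0129). TIF6, which keeps the large subunit from joining too early, had 263 and 646 CPM in S. bayanus, against 971 and 1580 CPM in S. paradoxus (log2 fold change -1.58, SE 0.38, adjusted p = 0.0161), and EMG1 was lower as well (-1.48). Of 21 initiation and elongation factors 1 was higher (TIF35) and 3 were lower (PAB1, TIF34 and SUI3), all between -1.30 and 1.41, and with total counts the 3 lower genes were not called and the list median of -0.25 became 0.21. RPC11 and RPA12, small subunits of RNA polymerases III and I, were lower (-1.69 and -1.94) in a list of 13 whose median was 0.65.

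The proteasome, which degrades ubiquitin-tagged proteins, had 8 of 29 tested members lower and 0 higher in S. bayanus. At an unadjusted p under 0.05 there were 1 higher and 10 lower members, and with DESeq2 0 and 8. The list median was only -0.26, and with total counts it was 0.22, with 6 members lower and 2 higher. The lower members lay in both the core particle (PRE4, PRE7, PRE10 and PUP1) and the regulatory particle (RPT6, RPN8 and RPN12), with the assembly factor UMP1. RPT6, an ATPase of the regulatory particle, had 66.7 and 114 CPM in S. bayanus, against 328 and 408 CPM in S. paradoxus (log2 fold change -2.08, SE 0.37, adjusted p = 0.00487). PRE4, a beta subunit of the core, had 105 and 146 CPM in S. bayanus, against 395 and 667 CPM in S. paradoxus (log2 fold change -2.05, SE 0.36, adjusted p = 0.00487). PRE10, an alpha subunit, had 146 and 155 CPM in S. bayanus, against 542 and 506 CPM in S. paradoxus (log2 fold change -1.81, SE 0.38, adjusted p = 0.00997). In all 3 genes the S. bayanus libraries were below the S. paradoxus libraries on both days. In S. cerevisiae most proteasome genes share an element bound by Rpn4, GGTGGCAAA on either strand. It is shown for the lower members that held it, from R64 with the match in capitals.
RPT6, chrVII:411351-411380, minus strand: atgcgagcgaGGTGGCAAAagttgtaatat
PRE4, chrVI:249958-249987, minus strand: tggtttagaaTTTGCCACCttaaatacgta
PRE7, chrII:141150-141179, plus strand: aaactcaaagGGTGGCAAAaacaagcggta
RPN12, chrVI:252398-252427, plus strand: ctacacattaTTTGCCACCcattgaaattg
PRE10, chrXV:1018855-1018884, minus strand: cctctaaatcGGTGGCAAAaataagaaagt
The element was in 20 of the 29 tested proteasome genes, 5 of them among the 8 that were lower, and in 1.22% of all windows. The 46 tested genes with the element included 10 that were lower (21.7%) and 4 that were higher (8.7%), a description of the genes and not a test. The matches say nothing of the promoters of S. bayanus and S. paradoxus, whose genomes were not used here.

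Among genes that make amino acids, the lists differed in their share of lower genes. In the aromatic pathway 5 of 11 tested members were lower and 0 higher, with a median of -1.18. At an unadjusted p under 0.05 there were 1 higher and 7 lower members, and with DESeq2 1 and 7. With total counts 2 were higher and 3 lower, and without S. bayanus replicate 1 only 1 was lower. The 5 genes were ARO3, at the entry, the chorismate mutase ARO7, PHA2 and TYR1 of the phenylalanine and tyrosine branches, and TRP3 of the tryptophan branch. TYR1 had 50.2 and 58.6 CPM in S. bayanus, against 166 and 204 CPM in S. paradoxus (log2 fold change -1.76, SE 0.34, adjusted p = 0.00714), and TRP3 had 84.4 and 142 CPM in S. bayanus, against 321 and 388 CPM in S. paradoxus (log2 fold change -1.67, SE 0.37, adjusted p = 0.0116). In the arginine list ARG7 was among the genes that were lower (log2 fold change -1.57), and the median over 7 tested members was -0.54. LYS9 of lysine synthesis had 428 and 515 CPM in S. bayanus, against 1921 and 3535 CPM in S. paradoxus (log2 fold change -2.54, SE 0.60, adjusted p = 0.0149), and HIS5 of histidine synthesis had 111 and 98 CPM in S. bayanus, against 557 and 646 CPM in S. paradoxus (log2 fold change -2.54, SE 0.39, adjusted p = 0.00297), each the only call among 5 tested members of its list. HOM2, a shared step toward methionine and threonine, had 199 and 441 CPM in S. bayanus, against 2679 and 3575 CPM in S. paradoxus (log2 fold change -3.34, SE 0.50, adjusted p = 0.00295). In the same sulfur and methionine list MUP1, a methionine permease, and STR2, a transsulfuration enzyme, were higher (3.77 and 1.31), and the median over 21 tested members was 0.00. None of 8 branched-chain genes was called by edgeR (0 at an unadjusted p under 0.05 and 0 by DESeq2). The 2 with the most reads, ILV5 and ILV2, had 1057 and 2475 CPM in S. bayanus, against 2703 and 4071 CPM in S. paradoxus and 1606 and 1956 CPM in S. bayanus, against 1961 and 1955 CPM in S. paradoxus. The Gcn4 site, TGACTC on either strand, was in 7.77% of all windows and in 5 of the 11 tested aromatic genes, TRP3 and PHA2 among those that were lower. Over the whole gene set the 310 genes with the site were called lower about as often (12.9%) as the 3093 without it (12.7%), and higher in 9.03% against 13.8%.
TRP3, chrXI:38259-38288, minus strand: tcaatggctcgtTGACTCattctaatctat

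The metabolism of one-carbon units had 3 of 12 tested members lower. SHM2, the cytosolic serine hydroxymethyltransferase, had 514 and 1582 CPM in S. bayanus, against 6031 and 10340 CPM in S. paradoxus (log2 fold change -2.98, SE 0.84, adjusted p = 0.0298). ADE3, which carries the folate-bound carbon onward, had 395 and 1301 CPM in S. bayanus, against 2622 and 4278 CPM in S. paradoxus (log2 fold change -2.12, SE 0.61, adjusted p = 0.0317), and the threonine aldolase GLY1 had 106 and 355 CPM in S. bayanus, against 514 and 808 CPM in S. paradoxus (log2 fold change -1.70, SE 0.40, adjusted p = 0.0155). In the 3 genes day 1 was below day 2 in both species, and the S. bayanus libraries were below the S. paradoxus libraries. Purine synthesis had 2 of 13 members higher, ADE1 and ADE8 (both 2.00), and pyrimidine genes had FUR1 higher (2.20) and DUT1 and URA10 lower (-2.34 and -2.32) of 14. Among amino acid permeases GAP1, MUP1 and AGP2 were higher and DIP5 and BAP3 lower of 16 tested members. Of 17 genes under nitrogen catabolite repression, GAP1 and the glutamate dehydrogenase GDH2 were higher and the allantoin genes DAL2 and DAL4 lower. This is near the 13.4% of all genes called higher and the 12.7% called lower. The purine, pyrimidine and permease lists are also small and were not tested against these shares.

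Lipid synthesis genes had calls in both directions, and which direction had more depended on the scaling. FAS2, the alpha subunit of fatty acid synthase, had 4585 and 9932 CPM in S. bayanus, against 34080 and 34560 CPM in S. paradoxus (log2 fold change -2.30, SE 0.70, adjusted p = 0.0393). Its call was lost without any 1 of the 4 S. bayanus and S. paradoxus libraries. Of 21 fatty acid and phospholipid genes 6 were lower (FAS2, OPI1, OPI3, CKI1, PSD1 and PIS1) and 3 higher (ELO1, IFA38 and PCT1), with a median of -0.56. Of 17 sphingolipid genes 6 were lower and 3 higher, with a median of -0.66. LCB1 and LCB2, the 2 subunits of serine palmitoyltransferase that begins the pathway, had 62.2 and 237 CPM in S. bayanus, against 440.1 and 975 CPM in S. paradoxus and 390 and 510.1 CPM in S. bayanus, against 1177 and 1116 CPM in S. paradoxus. CSG2 and SUR1, which act in adding mannose to sphingolipids, and IPT1 and TSC10 were the others, from -2.52 to -1.27. The 3 that were higher were the hydroxylases SUR2 and SCS7 and ORM1, an inhibitor of the first enzyme (1.64). Thus both subunits of the first enzyme were lower while its inhibitor was higher. With total counts in place of TMM, 5 fatty acid and phospholipid genes were higher and 3 lower, and 4 sphingolipid genes were higher and 3 lower. Of 25 ergosterol genes 3 were lower (ERG4, ERG24 and NCP1, from -2.15 to -1.60) and 2 higher (ERG28 and ERG27), against 3 lower and 5 higher with total counts. Neither main count exceeded the share of all genes, 12.7% lower and 13.4% higher.

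Cell cycle regulators were lower more often than higher, 7 against 2 of 25, with a median of -0.70. CDC6, which loads the replicative helicase, had 15.6 and 11.6 CPM in S. bayanus, against 122 and 154 CPM in S. paradoxus (log2 fold change -3.31, SE 0.44, adjusted p = 0.00202). CLN3, the cyclin that starts the cycle, had 28.9 and 96.3 CPM in S. bayanus, against 319.8 and 389 CPM in S. paradoxus (log2 fold change -2.73, SE 0.43, adjusted p = 0.00341). The cyclins CLN1, CLB5 and PCL9, the mitotic regulator NDD1 and CDH1 were lower by less (-1.29 to -1.58), and the helicase subunit MCM7 and the reductase subunit RNR3 were higher (1.28 and 2.36). With total counts only 2 of the 7 stayed called as lower and 4 members were called higher. Both tested histone genes, the variant HTZ1 and the linker HHO1, were lower. HTZ1 had 6.61 and 15.5 CPM in S. bayanus, against 76.2 and 99.8 CPM in S. paradoxus (log2 fold change -3.08, SE 0.41, adjusted p = 0.00202), and HHO1 had 5.11 and 8.17 CPM in S. bayanus, against 48.4 and 53.1 CPM in S. paradoxus (log2 fold change -2.93, SE 0.42, adjusted p = 0.00254). Core histone genes come in near-identical pairs and were not in the set. Of 11 genes of tubulin, actin and septins TUB2 and ARP3 were lower (-1.55 and -1.20) and SHS1 and BUD4 higher (1.72 and 1.54). Of 11 cell wall genes CWP2, a mannoprotein, had 176 and 407 CPM in S. bayanus, against 2266 and 3024 CPM in S. paradoxus (log2 fold change -3.24, SE 0.50, adjusted p = 0.00325), and CRH1 was lower too (-1.90), although another gene overlapped it on the same strand in S. paradoxus.

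Genes of cell type and meiosis were low in both species. FAR1, which arrests the cycle for mating, had 49.9 and 28.2 CPM in S. bayanus, against 10.5 and 11.5 CPM in S. paradoxus (log2 fold change 1.76, SE 0.47, adjusted p = 0.0254), and NEJ1, which regulates DNA end joining in haploid cells, had 17.4 and 16.9 CPM in S. bayanus, against 1.23 and 2.51 CPM in S. paradoxus (log2 fold change 3.23, SE 0.60, adjusted p = 0.00622). GPA1, the G protein alpha subunit of the pheromone response, had 11.7 and 5.92 CPM in S. bayanus, against 33 and 28.3 CPM in S. paradoxus (log2 fold change -1.83, SE 0.50, adjusted p = 0.0271). STE3, the receptor for a-factor and the only tested gene specific to alpha cells, had 6.01 and 3.1 CPM in S. bayanus, against 21.6 and 33.8 CPM in S. paradoxus (log2 fold change -2.65, SE 0.56, adjusted p = 0.0105), and in S. bayanus another gene overlapped it on the same strand. Of 10 tested meiosis and sporulation genes SPS4 was higher, with 49.6 and 14.4 CPM in S. bayanus, against 2.47 and 1.75 CPM in S. paradoxus (log2 fold change 3.70, SE 0.66, adjusted p = 0.00522). Of the 2 genes that the text of the study names and that were in the set, RME1, a repressor of meiosis, had 1.8 and 0 CPM in S. bayanus, against 3.7 and 2.76 CPM in S. paradoxus (adjusted p 0.155). TSC3, a small activator of serine palmitoyltransferase, had 12.3 and 25.6 CPM in S. bayanus, against 28.4 and 30.1 CPM in S. paradoxus (adjusted p 0.286). YDL124W, which the text also names, did not meet the condition on length in S. bayanus as computed here. The study did measure it and reported it as significantly lower in S. bayanus.

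Metal and phosphate genes had calls in both directions. Of all genes tested 13.4% were higher and 12.7% lower, and the small lists of this paragraph were not tested against these shares. Besides CRS5, the zinc transporters ZRT1 and ZRT3 were called, both lower. ZRT1, the high-affinity importer, had 2648 and 2424 CPM in S. bayanus, against 9159 and 7762 CPM in S. paradoxus (log2 fold change -1.73, SE 0.50, adjusted p = 0.0332). ZRT3, which releases zinc from the vacuole, had 158 and 198 CPM in S. bayanus, against 1262 and 862 CPM in S. paradoxus (log2 fold change -2.61, SE 0.43, adjusted p = 0.00386). Of 16 iron genes FTR1, SIT1, CCC2 and FRE5 were higher and FRE3 lower. FTR1, the high-affinity iron permease, had 568 and 859 CPM in S. bayanus, against 86.7 and 68.2 CPM in S. paradoxus (log2 fold change 3.22, SE 0.42, adjusted p = 0.00202), while FRE3, which reduces iron bound to siderophores, had 44.5 and 45.6 CPM in S. bayanus, against 318 and 202 CPM in S. paradoxus (log2 fold change -2.49, SE 0.36, adjusted p = 0.00257). PHO84, the high-affinity phosphate transporter, had 746 and 1987 CPM in S. bayanus, against 294 and 84 CPM in S. paradoxus (log2 fold change 2.99, SE 0.70, adjusted p = 0.0147), and the gap between species was far larger on day 2. PHO80 and PHM6 were also higher and GIT1 and PHO86 lower, of 13 phosphate genes. BIO2 and BIO4 of biotin synthesis were lower (-1.83 and -2.15) of 5 tested. The glucose transporter HXT2 had 592 and 901 CPM in S. bayanus, against 149 and 183 CPM in S. paradoxus (log2 fold change 2.17, SE 0.45, adjusted p = 0.00956), and the glucose signalling genes MTH1 and MIG1, on the same list of 4 tested members, were higher as well (2.27 and 1.66). Glycolysis had a single call, PYK2, higher (1.79), among 10 tested genes with a median of -0.62. VMA2 and VMA13 of the vacuolar ATPase were higher (1.96 and 1.86) of 11. Redox genes were divided, with PRX1, CTA1, TRX2 and ATX1 higher and GRX4, TRX1, OYE3 and the flavohemoglobin YHB1 lower, of 21. None of the 5 thiamine and pyridoxine genes was called by edgeR (1 at an unadjusted p under 0.05 and 0 by DESeq2), and the 2 with the most reads, THI6 and SNO1, had 272 and 494 CPM in S. bayanus, against 326 and 327 CPM in S. paradoxus and 105 and 209.8 CPM in S. bayanus, against 95.6 and 153 CPM in S. paradoxus.

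Levels also differed between the days of culture. Across the 3406 genes the change between days in S. bayanus and in S. paradoxus had a Pearson r of 0.496, and the species difference on day 1 and on day 2 had an r of 0.814. These are across genes within these libraries, which share the gene set and the depth, and genes are not replicates. In 676 genes the 2 days had opposite directions, and none of them was called. The calls were made on these same days, so a gene with opposite directions could hardly be called.

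**Figure D5:**
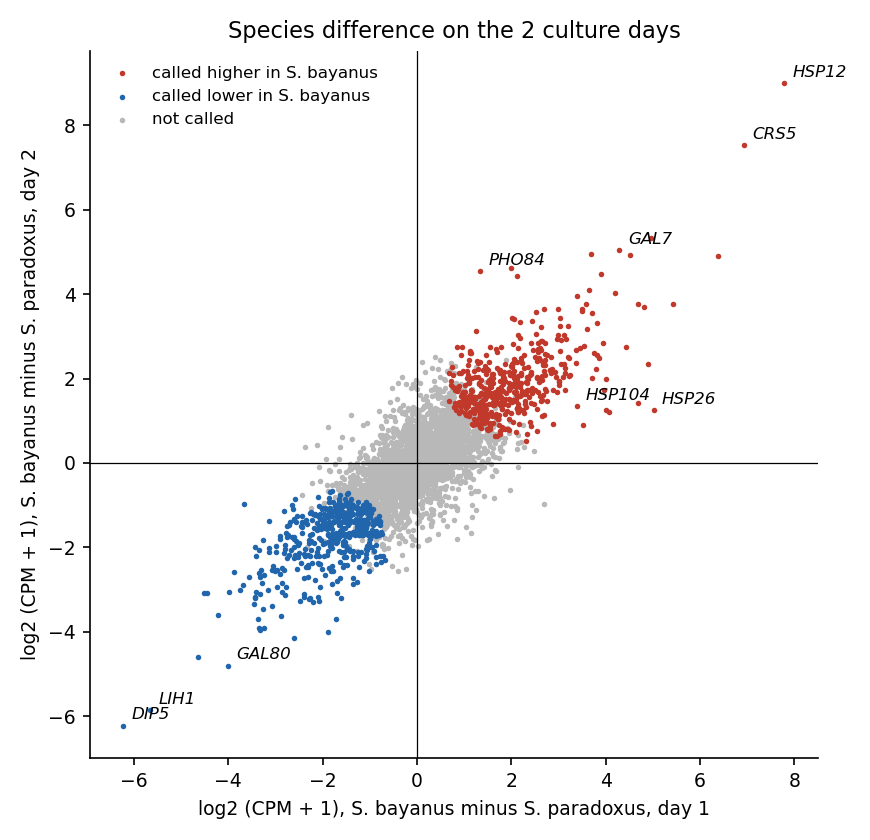
Difference of S. bayanus minus S. paradoxus in log2 (CPM + 1) on day 1 (horizontal axis) and day 2 (vertical axis) for the 3406 tested genes, with red for called higher and blue for called lower. HSP26 and HSP104 lie toward day 1 and PHO84 toward day 2, and the called genes lie in the upper right and lower left of the plot.

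Short genes differed more than long ones. Genes under 1000 bases had a median absolute log2 fold change of 0.92 and 32.6% of the 1234 tested were called, genes from 1000 to under 2000 bases had 0.73 and 24.7% of 1431, and genes of 2000 bases or longer had 0.55 and 17.9% of 741. The median of the mean read count per library rose along these classes, at 146.6, 273.5 and 452.2 reads, so length and depth moved together and their parts were not tested. On each day the order was the same, with 0.93, 0.73 and 0.57 on day 1 and 0.92, 0.74 and 0.61 on day 2. Genes with a TATA box (the letters TATA followed by AAA, AAT, TAA or TAT, on the strand of the gene) in the S. cerevisiae window had a median absolute log2 fold change of 0.80 over 1436 genes, compared with 0.71 over 1967 genes without one. Those with at least 2 had 0.87 over 589 genes. In all windows 42.6% held a TATA box, and the median levels of the classes were 74.1 CPM with and 68 CPM without one.

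The level in S. cerevisiae, which took no part in the contrast, lay nearer to that of S. paradoxus for 275 of the 455 genes higher in S. bayanus (60.4%) and for 269 of the 433 lower genes (62.1%), compared with 51.1% of the 2518 genes not called, on the scale of log2 (CPM + 1). It lay between the 2 species for 292 and 281 of the called genes, and for 621 of the 2518 not called. All called genes had an absolute log2 fold change of at least 1.00, against a median of 0.75 over all genes. A wider gap holds the S. cerevisiae level more easily, and in a narrow gap small errors can decide which species is nearer. Called and uncalled genes are therefore not compared like for like in either count. The differences were not tested. Only 2 genes had no read in both libraries of one species and at least 20 reads in the other. BIL2 had 15 and 19 reads in S. bayanus and none in S. paradoxus, at least 11.9-fold higher in S. bayanus when 3 reads over both S. paradoxus libraries are taken as the floor. YOL131W had none in S. bayanus and 18 and 14 reads in S. paradoxus, at least 10.1-fold lower on the same floor.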

How the data were processed

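Ribosome-depleted, strand-specific RNA libraries of 8 cultures were sequenced on an AB SOLiD instrument and aligned by the authors with MOSAIK to each species' own genome (sacCer2 for S. cerevisiae). The authors deposited, per annotated gene, the raw count of uniquely aligned reads and of all aligned reads, without normalization; no column of fold changes was used. Genes lying inside a gene on the opposite strand had few reads relative to it (median ratio per base 0, upper quartile 0.00352 in S. bayanus and 0.00253 in S. paradoxus), whereas those on the same strand shared reads (medians 0.799 and 0.952). Of the genes named, GAP1, TPS1, GAL4, PGM2, RNR3, AGP2, VMA13, PCT1, PIS1, OYE3, RPP2B, TRX1, RPL5, CRH1, SUR1, LCB1, STE3, TES1 and COX7 were overlapped by over 10% on the same strand.

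Unique counts were tested with edgeR 4.0.16 in R 4.3.3 (TMM, quasi-likelihood, species and day as terms, 6 libraries, at least 10 counts in at least 2 of 4 libraries, Benjamini-Hochberg adjustment over 3406 genes). Totals over all annotated genes were 9368983 and 11785499 counts in S. bayanus and 5512851 and 8557027 in S. paradoxus. The read-me of the deposit gives one day for every replicate 1 and another for every replicate 2, which pairs the samples, and their deviations correlated (r = 0.496). The study describes independent cultures, with all steps duplicated, a separate isolate of each strain and medium not taken from 1 batch. With 2 cultures of 1 strain per species, p-values measure the spread between these samples. On simulated data 81% of 4-fold and 11% of 2-fold changes and 0.0624% of unchanged genes were called. The simulation changed far fewer genes than the 888 called here, held no day effect and gave S. cerevisiae the levels of S. paradoxus. Its shares therefore check the fit and do not measure the power of this comparison. DESeq2 1.42.0, other scalings, filters, gene sets and library sets, and the study's chi-square were alternatives. Genes were matched by locus name to RefSeq R64 (3468 of 3475), whose windows of 300 bases before the start codon were searched for motifs. Of the listed genes, 6 found no match by symbol. Counts at 0 were given a floor of 3 reads, which covers counting error only.

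The genes and lists were chosen with earlier results of these data known. Genes named are the 15 highest and 15 lowest called genes with at least 100 reads in the higher species, genes named in the study's text, and called members of 47 lists or, where none was called, the 2 with the most reads; members named for context or for their site were added after their values were seen.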

Additional observations from a re-analysis of the deposited data

Results flagged for a closer look

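Lists whose medians lay on opposite sides of 0 on the 2 days, by at least 0.3 each, were picked out among lists with at least 5 tested members, and there were 2. The 13 phosphate genes had a median log2 (CPM + 1) difference of S. bayanus minus S. paradoxus of -0.34 on day 1 and 0.51 on day 2. The 16 amino acid permeases had -0.33 on day 1 and 0.45 on day 2. With 1 culture of each species per day, the difference between days was not tested.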

How the results depend on the processing

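No gene called in the main result was called in the other direction by any alternative. The main counts were 455 genes higher and 433 lower. Scaling by total counts gave 839 and 224, 6 libraries without the replicate block gave 239 and 221, and 4 libraries with the block gave 763 and 681; the cause was not tested. Leaving out 1 library at a time gave 2 to 799 higher and 2 to 652 lower. DESeq2 (537 and 508), RLE scaling, counts per base, no filter on low counts, all aligned reads, stricter length and uniqueness, 8 libraries, 4 libraries without the block (370 and 328) and the study's chi-square (344 and 468) stayed within 1.5 times, as did 2 alternatives chosen after seeing the data: the 6-library fit on genes measurable in all 4 species (355 and 341) and the set without overlapped genes (418 and 382). The chi-square was read at another threshold, an unadjusted p under 0.01 with the same direction on both days, over 3475 genes. It shared 268 of the 455 higher and 345 of the 433 lower genes, and 42.4% of its calls were higher. Of 227 named genes called, 226 stayed called with DESeq2, 200 with total counts, 151 without the replicate block, 125 without S. bayanus replicate 1, 188 without S. bayanus replicate 2, and 6 and 4 without S. paradoxus replicates 1 and 2; none reversed. The list medians of the proteasome (-0.26), initiation and elongation factors (-0.25) and ergosterol genes (-0.36) changed sign with total counts (0.22, 0.21 and 0.09) while the median of all genes moved to 0.49. In the simulation, which had fewer changed genes and no day effect, 11% of 2-fold changes were called, and smaller changes were not simulated.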

Other observations

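Neighbouring genes of the R64 annotation were compared by orientation, as a description. In 546 divergent pairs with both genes tested, the log2 fold changes of the 2 genes had a Pearson r of 0.0878 across pairs, against 0.00521 in 1027 tandem and -0.0216 in 602 convergent pairs. Both genes were called in the same direction in 21 of the 546 divergent pairs and in opposite directions in 11. Tandem pairs had 40 and 42 of 1027, and convergent pairs 14 and 22 of 602. The share called in the same direction was thus similar in divergent and tandem pairs. Of all single genes tested 13.4% were called higher and 12.7% lower, and the pair counts were not tested against these shares. Among the 12 divergent pairs with both genes higher in S. bayanus, 4 held a mitochondrial ribosomal protein gene: MRPL31 (2.81) with CMC1 (5.56), MRPL27 (2.50) with DUG2 (1.76), MRPL3 (1.53) with MSS1 (1.59), and MRPS8 (2.44) with AIM36 (1.47). These pairs were picked from the calls themselves, and 19 of all 51 tested mitochondrial ribosomal protein genes were higher. Neighbours share an intergenic region in S. cerevisiae, and gene order in the species measured was not used here.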
